A study of Papio anubis with 25 samples.

Results

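The BPI-fold protein family is represented here by 6 genes, BPIFA1, BPIFA2, BPIFB1, BPIFB2, BPI and LBP, selected by symbol from the 21287 genes of the expression table. All 6 were found, each as 1 row, and each has a value in all 25 libraries. The libraries came from 5 olive baboons (Papio anubis, an Old World monkey), with parotid, submandibular and sublingual salivary gland, pancreas and liver of every animal, hence n = 5 per tissue. The tissue was flash frozen, 4 of the animals were female and baboon 5 was male, and the labels name no treatment, age or genotype. The series as a whole concerns amylase genes in salivary and digestive tissue, and its within-animal design allows every tissue to be compared with every other. Values are in TPM, the share of a library's transcripts that a gene supplies after correction for transcript length. The number of reads behind a TPM value is unknown, so the error given is the standard deviation (SD) over animals. In bulk tissue, fewer cells of a type and less RNA per cell cannot be told apart.

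Proteins of this family share a fold with a pocket that can hold lipids, and several of them bind the lipopolysaccharide of Gram-negative bacteria. LBP is made by hepatocytes, circulates in plasma as an acute-phase protein and hands lipopolysaccharide to CD14, which presents it to the receptor complex of TLR4 and LY96. BPI is stored in neutrophil granules and is bactericidal. The BPIF genes, formerly called PLUNC genes, encode proteins secreted onto the mucosal surfaces of the mouth, nose and upper airways. BPIFA2 was first known as parotid secretory protein and is a major protein of saliva, while BPIFA1 and BPIFB1 are best known from airway epithelium and its submucosal glands.

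The 6 genes divided into those led by 1 or more salivary glands and those led by liver. BPIFA2 was highest in the submandibular gland, BPIFB1 and BPIFB2 had their highest values in the sublingual gland, and LBP and BPI were highest in liver. BPIFA1 was at or near 0 in every library. Their order by abundance in the gland tissues was BPIFA2, BPIFB1, BPIFB2, with the exception of 3 sublingual libraries, in which BPIFB1 exceeded BPIFA2.

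**Figure D1:**
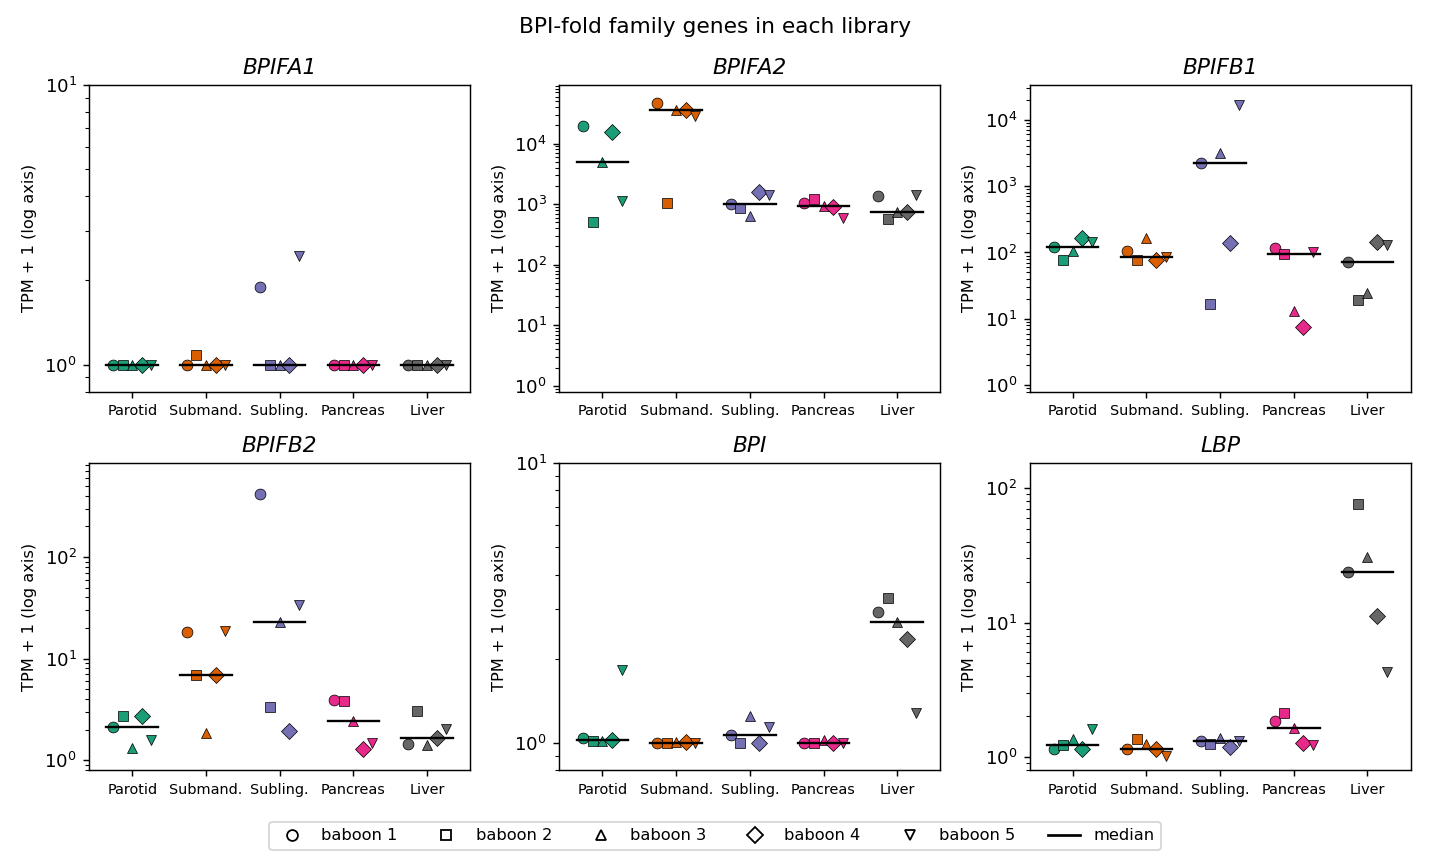
TPM + 1 on a log axis for each of the 6 genes in the 25 libraries, by tissue; each symbol is a baboon and each line the median of 5. BPIFA2 has means of 938 to 1115 TPM outside the parotid and submandibular glands, BPIFB1 and BPIFB2 spread most in the sublingual gland, and LBP and BPI rise in liver.

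The libraries of a gland were unequal in their content of secretory tissue. AQP5, the apical water channel of salivary acini, and LPO, salivary lactoperoxidase, were both under 10 TPM in 5 of the 15 gland libraries: parotid of baboons 2 and 5, submandibular of baboon 2, and sublingual of baboons 2 and 4. AQP5 was at most 5.40 TPM there and at least 40.5 TPM in the other 10 gland libraries, against at most 4.52 TPM in pancreas and liver. Markers of other tissue were high in several of these libraries. The 6 adipocyte markers summed to 21975 TPM in the parotid library of baboon 2, the 6 lymphocyte markers to 954 TPM in that of baboon 5, the 5 skeletal muscle markers to 88018 TPM in the sublingual library of baboon 2, and the 6 squamous epithelium markers to 49389 TPM in that of baboon 4. Squamous markers also summed to 113312 TPM in the sublingual library of baboon 1, and adipocyte markers to 6992 TPM in the submandibular library of baboon 5, although AQP5 and LPO were present in both. In pancreas and liver the defining markers were present, with summed acinar markers of 158178 TPM or more in every pancreas library and summed hepatocyte markers of 42313 TPM or more in every liver library. The part of these differences in the results below was not tested, but the counts of called genes among the 6 are also given with such libraries left out.

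Tissues were compared in all 10 pairs with limma, on log2(TPM + 1), with tissue and animal as terms. The spread of a gene was estimated over all 25 libraries. Its SE is thus the same in every pair and does not measure the spread of the 2 tissues compared. A difference was called where the adjusted p (Benjamini-Hochberg over the 14991 genes tested) was under 0.05 and the log2 fold change was 1 or more in either direction. Of the 6 genes, 5 entered the test because their mean reached 1 TPM in at least 1 tissue. BPIFA1 did not, and BPI and LBP did so through liver alone, so their calls against liver carry no weight as a count. Against pancreas, 0 of the 5 genes were called in the parotid gland (3.82% of all genes tested were called), 1 in the submandibular gland (4.08% of all genes) and 2 in the sublingual gland (9.47% of all genes). Against liver, 2 were called in the parotid gland (13.8% of all genes), 3 in the submandibular gland (16.5%), 4 in the sublingual gland (15.4%) and 2 in pancreas (17.5%). Between glands the test called few genes of any kind. None of the 5 genes was called between the parotid and submandibular glands (0% of all genes) or between the parotid and sublingual glands (0.113%), and 1 was called between the submandibular and sublingual glands (0.0667%). At an unadjusted p under 0.05, those 3 comparisons held 2, 3 and 2 of the 5 genes, where 1.69%, 9.13% and 14.1% of all genes tested were under it.

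BPIFA2, the salivary protein once named for the parotid gland, was more abundant in the submandibular gland. Its level in the submandibular libraries of baboons 1 to 5 was 46591, 1044, 35896, 36518 and 28937 TPM, or 29797 ± 17262 TPM (SD, n = 5). Submandibular baboon 2, one of the libraries low in AQP5, stood far below the other 4, in which BPIFA2 ranked as gene 6 of the library and made up 2.89% to 4.66% of all transcripts. In the parotid libraries it was 19382, 507, 5051, 15810 and 1108 TPM, or 8372 ± 8692 TPM (SD, n = 5). Of the parotid libraries low in AQP5, that of baboon 5 lay within the range of pancreas and liver and that of baboon 2 below it. Within each animal the parotid library held less BPIFA2 than the submandibular one, in 5 of 5 baboons, yet the tissues overlapped and the difference was not called (log2 fold change -2.21, SE 0.76, adjusted p = 1).

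The remaining tissues held similar levels of BPIFA2. The sublingual libraries had 1021, 870, 643, 1598 and 1442 TPM, or 1115 ± 398 TPM (SD, n = 5). The pancreas libraries had 1048, 1230, 936, 892 and 582 TPM, or 938 ± 238 TPM (SD, n = 5). The liver libraries had 1385, 562, 736, 754 and 1414 TPM, or 970 ± 399 TPM (SD, n = 5). These 3 tissues overlapped throughout, with log2 fold changes of 0.21 for sublingual gland against pancreas (95% confidence interval -1.36 to 1.79) and 0.01 for pancreas against liver (95% confidence interval -1.57 to 1.58). The order of means was therefore submandibular, parotid, sublingual, liver and pancreas, and the last 3 overlapped. The intervals rest on the spread over all 25 libraries, which was largest in the parotid and submandibular glands.

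BPIFA2 was higher in the submandibular gland than in pancreas by a log2 fold change of 4.30 (SE 0.76, adjusted p = 0.000692), a 19.7-fold difference, in 4 of 5 baboons. Only 1.27% of all genes tested were called higher in the submandibular gland in that comparison. Against liver its log2 fold change was also 4.30 (SE 0.76, adjusted p = 0.00017), and the submandibular value was higher in 5 of 5 baboons, where 2.61% of all genes were called in that direction. Both calls held in all 14 alternative analyses. Against the sublingual gland the log2 fold change was 4.08 (SE 0.76, adjusted p = 0.0415), higher in 5 of 5 baboons, where 0.02% of all genes were called higher in the submandibular gland. That call was lost in 9 of 14 alternatives, among them the fit without the animal term (adjusted p = 0.073) and those without baboon 1, 3, 4 or 5 (adjusted p = 0.629, 0.284, 0.436 and 0.076).

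The parotid gland did not pass the test for BPIFA2, with log2 fold changes of 2.09 against pancreas (SE 0.76, adjusted p = 0.147), 2.09 against liver (SE 0.76, adjusted p = 0.0705) and 1.87 against the sublingual gland (SE 0.76, adjusted p = 0.409). All 3 were called without baboon 2. Without its libraries the log2 fold changes were 2.93 against pancreas (adjusted p = 0.00497), 2.66 against liver (adjusted p = 0.0032) and 2.54 against the sublingual gland (adjusted p = 0.0281). Without baboon 5 the difference from liver was also called, at 2.71 (adjusted p = 0.0384), as it was with all animals when only the compared tissues were fitted (adjusted p = 0.024).

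**Figure D2:**
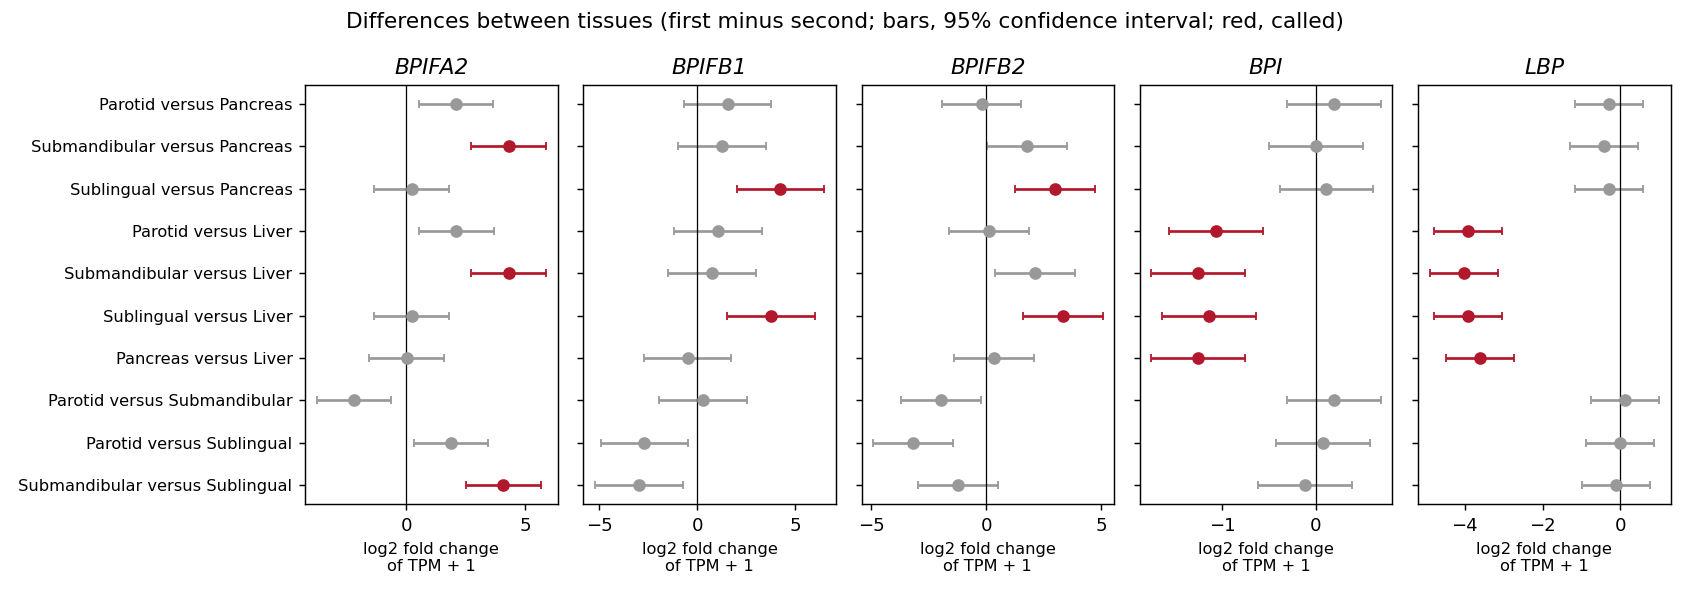
Log2 fold changes of TPM + 1 for the 5 genes tested, first tissue minus second, with 95% confidence intervals; red points are called and grey points are not. BPIFA2 is called in the 3 submandibular comparisons with sublingual gland, pancreas and liver, BPIFB1 and BPIFB2 in sublingual gland against pancreas and liver, and LBP and BPI in the 4 comparisons with liver.

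BPIFA2 was present in every pancreas and liver library, at 3.15% and 3.26% of its submandibular mean. Other abundant salivary transcripts were present there as well. CA6, the secreted carbonic anhydrase of saliva, stood at 7.15% of its highest gland mean in pancreas and 8.25% in liver, and ZG16B, a salivary lectin, at 1.83% and 2.28%. LOC103884417, an abundant salivary locus with no established name, stood at 3.67% and 3.58%. The ratio of BPIFA2 to that locus had the narrowest range of the 4 such ratios computed: BPIFA2 amounted to 10.4% to 15.7% of it in parotid libraries, 11.5% to 22.1% in submandibular, 11.7% to 20.3% in sublingual, 11.1% to 15.5% in pancreas libraries, and 12.8% to 17.2% in liver libraries. In the 10 pancreas and liver libraries, Pearson's r between the 2 genes on the log scale was 0.911, over libraries that share animals and no gland tissue. Over all 25 libraries BPIFA2 was 4.79% to 62.6% of the proline-rich protein gene PRH2, 1.39% to 33.2% of LOC103881672 and 163% to 1399% of CA6, and r in the 10 libraries was 0.844, 0.699 and 0.814. Markers of pancreas and liver were found in the converse positions, at lower shares: CPA1, a pancreatic protease, had means outside pancreas of 0.537% to 0.839% of its pancreas mean, and ALB, the albumin of hepatocytes, had means outside liver of 0.378% to 0.955% of its liver mean. Whether the pancreas and liver values of BPIFA2 come from cells of those organs or from gland RNA that entered the libraries was not tested. For the sublingual values, which lay at a similar level, entry of RNA from the other glands was not tested either.

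**Figure D3:**
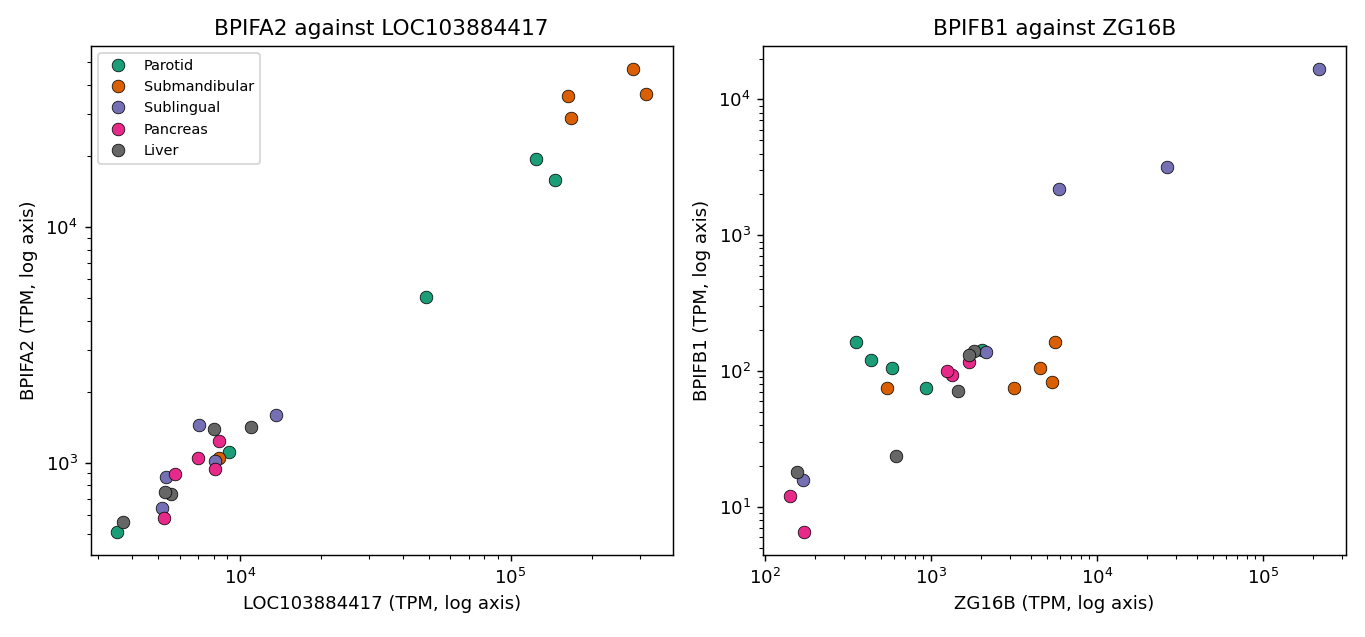
BPIFA2 against LOC103884417 (left) and BPIFB1 against ZG16B (right), both in TPM on log axes, 1 point per library coloured by tissue. BPIFA2 lies between 10.4% and 22.1% of LOC103884417 over the 25 libraries, while BPIFB1 follows ZG16B in pancreas and liver, where it is 3.79% to 11.5% of it, and less so in the parotid gland.

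BPIFB1, a secreted protein of airway and oral mucous epithelium, varied most of all in the sublingual gland. Its sublingual level in baboons 1 to 5 was 2194, 15.9, 3203, 137 and 16725 TPM, or 4455 ± 6993 TPM (SD, n = 5). Baboons 1, 3 and 5 were above every value of any other tissue, while baboons 2 and 4, whose sublingual libraries were low in AQP5, lay within the range of the rest. The parotid libraries held 121, 74.8, 105, 163 and 144 TPM, and the submandibular libraries 105, 75.2, 164, 74.9 and 83.2 TPM. The means of these 2 glands were 122 ± 34.2 and 100 ± 37.4 TPM (SD, n = 5 each), and their ranges overlapped. Their log2 fold change was 0.29 (95% confidence interval -1.95 to 2.53). That interval rests on all 25 libraries, the widely spread sublingual ones included, and not on these 2 glands alone. The pancreas libraries held 116, 93.9, 12.1, 6.54 and 101 TPM, and the liver libraries 70.9, 18.0, 23.7, 141 and 131 TPM. By mean the order was sublingual, parotid, submandibular, liver and pancreas, and below the sublingual gland no pair of tissues was called.

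BPIFB1 was called higher in the sublingual gland than in pancreas, by a log2 fold change of 4.24 (SE 1.08, adjusted p = 0.0174), in 4 of 5 baboons, where 6.97% of all genes were called in that direction. It was also called higher than in liver, by 3.74 (SE 1.08, adjusted p = 0.0182), in 3 of 5 baboons, where 5.93% of all genes were. Both calls were lost with single animals left out. Against pancreas the adjusted p was 0.0908 without baboon 1, 0.144 without baboon 3, 0.0503 without baboon 4 and 0.0822 without baboon 5. Against liver it was 0.107 without baboon 1, 0.154 without baboon 3 and 0.107 without baboon 5. Fitted on the compared tissues alone, neither passed (adjusted p = 0.0699 and 0.0726). The differences of the parotid and submandibular glands from the sublingual gland, at log2 fold changes of -2.70 and -2.99 (SE 1.08 each), were not called (adjusted p = 0.398 and 0.265).

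Outside the glands BPIFB1 followed ZG16B. It amounted to 3.79% to 8.58% of ZG16B in the pancreas libraries and 3.85% to 11.5% in the liver libraries, although ZG16B itself ranged from 142 to 1813 TPM there. Pearson's r between the 2 genes over those 10 libraries was 0.949, and that of BPIFB1 with LYZ, the lysozyme of saliva, was 0.953. Its r with BPIFA2 in the same libraries was 0.305. In the sublingual library of baboon 5, BPIFB1 was 7.70% of ZG16B, and in that of baboon 1 it was 37.4%. The source of BPIFB1 in pancreas and liver was not tested.

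BPIFB2, another secreted member known from saliva and oral epithelium, was a low transcript with the same leading tissue. The sublingual libraries held 418, 2.33, 22.1, 0.94 and 32.3 TPM, or 95.2 ± 181 TPM (SD, n = 5). Baboon 1 was far above the others, and baboons 2 and 4 were again low. The submandibular libraries held 17.5, 5.90, 0.86, 5.89 and 17.9 TPM, or 9.59 ± 7.64 TPM (SD, n = 5). The parotid libraries held 1.11, 1.73, 0.32, 1.75 and 0.59 TPM, or 1.10 ± 0.65 TPM (SD, n = 5). The submandibular value exceeded the parotid one in 5 of 5 baboons, but the difference was not called (log2 fold change for parotid against submandibular -1.97, SE 0.84, adjusted p = 1). Pancreas had 1.58 ± 1.26 TPM, with a range of 0.27 to 2.92, and liver had 0.91 ± 0.66 TPM, with a range of 0.42 to 2.02 (SD, n = 5 each). These 2 tissues and the parotid gland overlapped and did not differ beyond their spread.

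BPIFB2 was called higher in the sublingual gland than in liver, by a log2 fold change of 3.32 (SE 0.84, adjusted p = 0.00689), in 5 of 5 baboons. Against pancreas it was 2.98 higher (SE 0.84, adjusted p = 0.0297), in 4 of 5 baboons. Both calls were lost without baboon 1, which had the highest sublingual value: the log2 fold changes were then 2.11 against liver (adjusted p = 0.0864) and 2.04 against pancreas (adjusted p = 0.162). Both were also lost when only the compared tissues were fitted (adjusted p = 0.0779 and 0.0687). The call against pancreas was also lost without baboon 3 (adjusted p = 0.111) and without baboon 5 (adjusted p = 0.117), with no filter on low values (adjusted p = 0.0582), and under both other scalings of the libraries. The submandibular gland exceeded liver in 5 of 5 baboons, by a log2 fold change of 2.11 (SE 0.84) that was not called (adjusted p = 0.092). This difference was called under 5 of the 14 alternatives, with both other scalings among them (2.44, adjusted p = 0.036, and 2.57, adjusted p = 0.0276).

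BPIFA1, the abundant surfactant-like protein of the nose and upper airway, was listed at 0 in 22 of the 25 libraries. It was listed at 0.89 TPM in the sublingual library of baboon 1, 1.44 TPM in that of baboon 5 and, among submandibular libraries, 0.08 TPM in that of baboon 2. The sublingual library of baboon 5 was also highest in BPIFB1 and in the summed level of the 5 airway secretory markers, which was 2440 TPM there and at most 59.5 TPM in the other 4 sublingual libraries. SCGB3A2 alone supplied 2429 TPM of that sum, and 1 of the 5 markers was at 0. No test was made on BPIFA1, since its highest tissue mean was 0.466 TPM.

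The make-up of the family differed between the sublingual gland and the other tissues. BPIFA2 supplied 83.1% to 99.8% of the summed TPM of the 6 genes in every library outside the sublingual gland. In the sublingual gland it supplied a median of 28.1%, with a range of 7.92% to 97.9%, and BPIFB1 a median of 60.4%, with a range of 1.78% to 91.9%. BPIFA2 prevailed there in baboons 2 and 4 only, the libraries low in AQP5. Sublingual BPIFA2 was at a level similar to that of pancreas and liver, and its source was not tested. LBP and BPI together reached at most 11.8% of the family sum in liver and at most 0.114% elsewhere. The family as a whole made up 0.113% to 4.67% of a submandibular library, 0.0584% to 1.95% of a parotid library, 0.0888% to 1.82% of a sublingual library, and at most 0.155% of a pancreas or liver library.

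**Figure D4:**
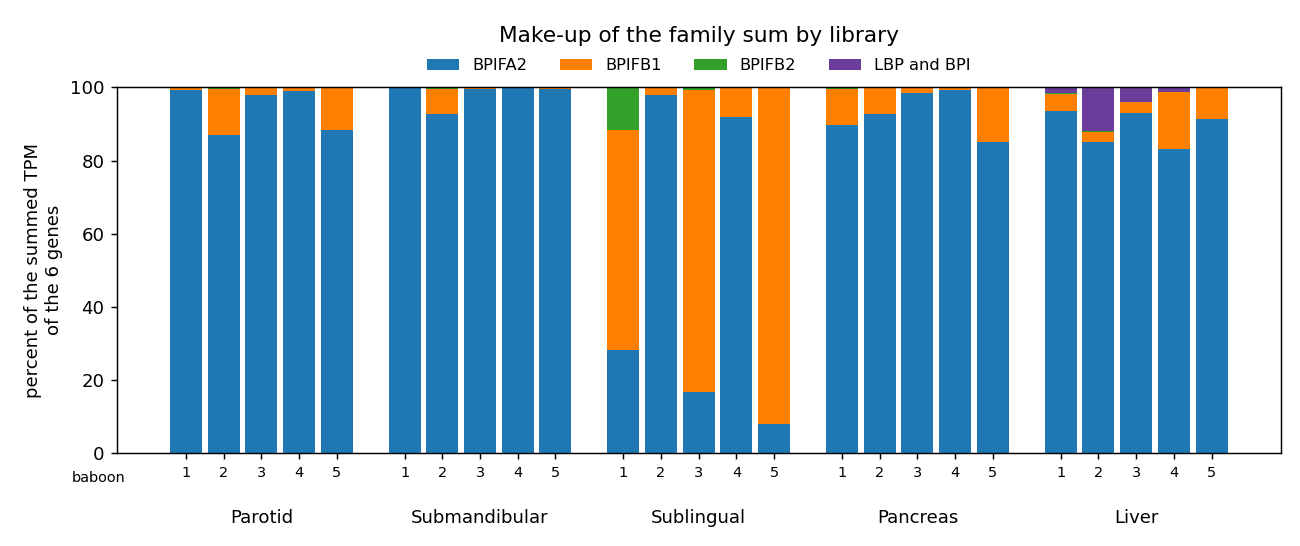
Percent of the summed TPM of the 6 genes contributed by BPIFA2, BPIFB1, BPIFB2 and by LBP with BPI, 1 bar per library; BPIFA1 is too low to show. BPIFA2 fills nearly the whole bar outside the sublingual gland, and BPIFB1 fills most of it in sublingual baboons 1, 3 and 5.

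Leaving out the 5 gland libraries low in AQP5 and LPO, chosen with the data in view, left 3 parotid, 4 submandibular and 3 sublingual libraries. Those left out were also the lowest of their gland in BPIFA2 (parotid and submandibular) or in BPIFB1 and BPIFB2 (sublingual). A wider separation thus follows in part from the choice, and the adjusted p-values below are a description. The sublingual gland was then separated from the other glands more widely, while the difference in BPIFA2 between the parotid and submandibular glands became smaller. The parotid gland then exceeded the sublingual gland in BPIFA2 by a log2 fold change of 3.56 (SE 0.46, adjusted p = 0.000493), a direction in which 0.512% of all genes were called (30.3% in either direction). The submandibular gland exceeded it by 5.21 (SE 0.42, adjusted p = 2.42e-06), where 0.304% of all genes were (32.1% in either direction). BPIFB1 was lower in the parotid and submandibular glands than in the sublingual gland, at -4.78 (SE 0.99, adjusted p = 0.00693) and -5.44 (SE 0.90, adjusted p = 0.00289), and so was BPIFB2, at -5.08 (SE 0.77, adjusted p = 0.00171) and -3.03 (SE 0.70, adjusted p = 0.0096). In those directions 29.8% and 31.8% of all genes tested were called, so the count for BPIFB1 and BPIFB2 is to be read against a large background. BPIFA2 was 1.64 lower in the parotid than in the submandibular gland on the log2 scale (SE 0.42), which was still not called (adjusted p = 0.324, 0.138% of all genes called). Against pancreas the parotid gland was then higher in BPIFA2 by 3.65 (SE 0.41, adjusted p = 9.86e-06), where 2.18% of all genes were called in that direction. The sublingual gland was higher than pancreas in BPIFB1 by 6.73 (SE 0.88, adjusted p = 5.75e-05) and in BPIFB2 by 5.03 (SE 0.69, adjusted p = 9.09e-05), where 29% of all genes were.

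LBP, the plasma carrier of lipopolysaccharide, was a liver transcript in these data. The liver libraries of baboons 1 to 5 held 22.7, 75.7, 29.7, 10.2 and 3.31 TPM, or 28.3 ± 28.4 TPM (SD, n = 5). No other library exceeded 1.11 TPM. LBP entered the test through its liver values alone, so its separation from the other tissues is a description. The means elsewhere were 0.617 ± 0.379 TPM in pancreas, 0.293 ± 0.196 in the parotid gland, 0.285 ± 0.0778 in the sublingual gland and 0.187 ± 0.13 in the submandibular gland (SD, n = 5 each), or 0.661% to 2.18% of the liver mean. Compared with liver, the log2 fold change was -3.91 in the parotid gland, -4.03 in the submandibular gland, -3.91 in the sublingual gland and -3.61 in pancreas (SE 0.42 each), with adjusted p between 7.19e-08 and 4.46e-07. Of all genes, 10.9%, 13.9%, 9.52% and 14.6% were called higher in liver in these 4 comparisons. All 4 calls held in all 14 alternatives, although a pseudocount of 0.1 moved the submandibular value to -6.10. No pair of the tissues other than liver was called, although pancreas exceeded the submandibular gland in 5 of 5 baboons.

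BPI, the neutrophil granule protein, was low everywhere and highest in liver. The liver libraries held 1.93, 2.30, 1.71, 1.36 and 0.28 TPM. In the submandibular gland 3 of the 5 libraries were listed at 0 and none exceeded 0.0106 TPM, and in pancreas 4 were listed at 0 and the other was at 0.0217 TPM. Sublingual libraries ranged from 0 to 0.251 TPM. The parotid libraries held 0.0426, 0.0137, 0.0155, 0.02 and 0.824 TPM, and the last value, from baboon 5, exceeded that animal's liver. In that library CD79A, a B cell marker, was at 338 TPM, above its other parotid values. The 8 neutrophil genes measured summed to 663 TPM there, within the parotid range of 94.2 to 710 TPM, with none of them at 0. Of these, CSF3R and CAMP, at 9.66 and 31.0 TPM, were at their highest parotid values, while MPO, at 1.36 TPM, LCN2, at 71.2 TPM, and S100A8, at 199 TPM, were not. The part of these cells in the BPI value was not tested. On log2(TPM + 1), BPI differed from liver by -1.06 in the parotid gland, -1.26 in the submandibular gland, -1.14 in the sublingual gland and -1.26 in pancreas (SE 0.24 each), with adjusted p between 0.000418 and 0.00287. These differences lay near the limit of 1: 1 to 6 of 13 alternatives per comparison did not call them, and the parotid call was lost without baboon 1, 2 or 3 (-0.96, -0.90 and -0.98). With a pseudocount of 0.1 they were -2.91 to -3.73. BPI, too, entered the test through liver alone.

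MPO, the granule enzyme of neutrophil precursors, was at most 0.704 TPM in liver and 0.731 TPM in pancreas, and reached 29.2, 16.0 and 49.6 TPM in the parotid, submandibular and sublingual glands. It was called higher than in liver in all 3 glands, but it entered the test through the glands alone, so these calls are a description. CSF3R, a receptor of neutrophils, differed from liver by a log2 fold change of 0.48 in the parotid gland, -0.12 in the submandibular gland and -0.37 in the sublingual gland, none of them called. Of the 12 neutrophil genes listed, 8 were measured, among them LCN2 and the calprotectin genes S100A8 and S100A9, which epithelia also express; ELANE, AZU1, PRTN3 and CTSG were not analysed here. Of these 8, 1 was called higher in the parotid gland than in liver, 1 in the submandibular gland and 2 in the sublingual gland, where 2.84%, 2.61% and 5.93% of all genes tested were called in that direction. MPO is counted in each gland. Their median log2 fold changes were 0.51, 0.28 and 1.19, against 0.01, -0.27 and 0.17 over all genes tested.

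In liver, LBP and BPI differed between animals, and their orders are set beside those of CRP, FGG and ALB. CRP and FGG are picked from the 11 acute-phase genes measured, and the orders of the others are not given here. LBP was highest in baboon 2, then 3, 1, 4 and 5, and CRP, the C-reactive protein of the acute phase, had that order as well, with 672, 2760, 2058, 511 and 73.3 TPM in baboons 1 to 5. BPI followed the order 2, 1, 3, 4 and 5, as did FGG, a fibrinogen chain, with 2389, 3843, 2163, 1798 and 357 TPM. Baboon 5 was lowest in all 4 genes and in ALB, which was at 14279 TPM there and between 31060 and 38464 TPM in the other 4, with the order 3, 1, 4, 2 and 5. LBP spanned a range from 0.146 to 3.34 times the median liver library, CRP from 0.109 to 4.11 times, BPI from 0.166 to 1.35 times and ALB from 0.453 to 1.22 times. Summed over the 11 acute-phase genes, the liver libraries of baboons 1 to 5 held 21921, 45772, 39658, 28830 and 11332 TPM. That order, 2, 3, 4, 1 and 5, was neither that of LBP nor that of BPI. With 5 animals, and the only male among them lowest, these orders are a description.

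**Figure D5:**
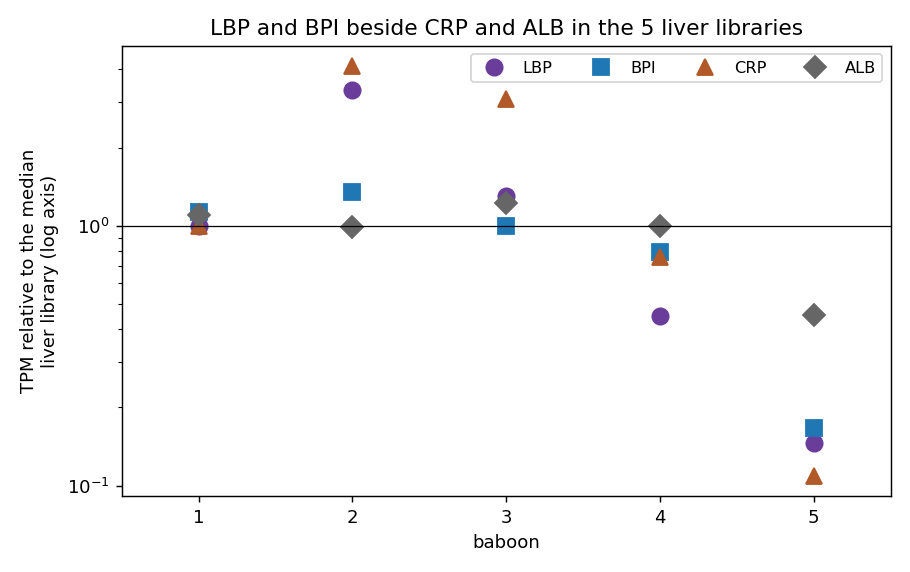
TPM of LBP, BPI, CRP and ALB in the 5 liver libraries, each divided by its median liver library, on a log axis. LBP and CRP are highest in baboon 2 and lowest in baboon 5, and ALB varies less than the other 3 genes.

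Of the 11 acute-phase genes measured, all were called lower than in liver in each of the 4 other tissues, with median log2 fold changes of -6.49 to -7.62, against -0.44 to 0.17 over all genes tested. Of all genes, 9.52% to 14.6% were called higher in liver in these comparisons. The list was made of hepatic genes, so its count is a description. The value of a low gene is held down by the pseudocount. In TPM, the means of CRP outside liver were 0.487% to 1.08% of its liver mean, beside 0.661% to 2.18% for LBP. The 12 genes of lipopolysaccharide recognition and signalling behaved otherwise. CD14, to which LBP delivers its ligand, was called lower than in liver in all 4 tissues, at -5.15 in the parotid gland, -6.49 in the submandibular gland, -5.84 in the sublingual gland and -6.56 in pancreas (SE 0.60 each). Its liver values were 582, 646, 590, 587 and 224 TPM, with baboon 5 again lowest. The other 11 genes, TLR4 and LY96 included, were not called in any gland against liver, and 1 of them, the adaptor TICAM1, was called lower in pancreas (-1.20, SE 0.42, adjusted p = 0.0473). The median log2 fold change of the 12 genes against liver was -0.25 to 0.57. In the 6 comparisons without liver, 0 of the 12 were called by limma, with 0 to 7 at an unadjusted p under 0.05. Over all genes tested, 0% to 9.47% were called there and 1.69% to 31% had an unadjusted p under 0.05.

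The genes lie in 2 groups on 1 chromosome of the RefSeq annotation of the Panubis1.0 assembly. The first runs, between SUN5 and CDK5RAP1, as BPIFB2, BPIFB6, BPIFB3, BPIFB4, BPIFA2, LOC101004235, BPIFA3, BPIFA1 and BPIFB1. BPI and LBP are direct neighbours, with 79 protein-coding genes between BPIFB1 and BPI. Neighbours in the first group did not all share a level: BPIFA2 and BPIFB1 bracket BPIFA3 and BPIFA1, whose highest tissue means were 1.04 and 0.466 TPM. The neighbours BPI and LBP were both highest in liver. LOC101004235, adjacent to BPIFA2 and named here after its values were seen, had 1750, 24.3, 124, 835 and 1085 TPM in the submandibular libraries of baboons 1 to 5. It was called higher there than in pancreas (log2 fold change 4.23, SE 0.93, adjusted p = 0.00638) and liver (4.30, SE 0.93, adjusted p = 0.00158). In the parotid gland, where BPIFA2 was the other high member, it ranged from 1.13 to 31.6 TPM. The sublingual libraries ranged from 1.48 to 758 TPM with a median of 28.5 TPM, and the highest, of baboon 5, exceeded the submandibular libraries of baboons 2 and 3. How reads were divided between similar neighbours cannot be read from the table.

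The other 7 genes of the superfamily, BPIFA3, BPIFB3, BPIFB4, BPIFB6, BPIFC and the plasma lipid transfer genes CETP and PLTP, were low by comparison. Of the 4 that could be tested, 0 were called by limma in any of the 10 comparisons, with 0 to 2 per comparison at an unadjusted p under 0.05. Over all genes tested, 0% to 17.5% were called per comparison and 1.69% to 31% had an unadjusted p under 0.05. With 4 genes, a count of 0 is near that share. Their median log2 fold changes were -0.49 to 0.80, against -0.44 to 0.63 over all genes tested. PLTP was the most abundant, with means of 41.8 ± 53.6 TPM in the parotid gland, 21.5 ± 31.4 in the submandibular gland, 9.20 ± 4.45 in the sublingual gland, 7.59 ± 3.58 in liver and 3.24 ± 0.973 in pancreas (SD, n = 5 each). Its highest value, 121 TPM, and the highest submandibular value, 76.1 TPM, came from libraries low in AQP5, and its medians were 7.70, 5.23, 10.6, 6.98 and 3.67 TPM in that order of tissues. CETP had means of 4.36 ± 7.46 TPM in the submandibular gland and, in liver, 2.96 ± 2.20 TPM (SD, n = 5 for both). The submandibular mean of CETP rests on baboon 5, at 17.5 TPM, the library with the 6992 TPM of adipocyte markers, and without it was 1.08 TPM (n = 4). BPIFB3 and BPIFA3 had their highest means in the sublingual gland, 1.69 ± 2.67 and 1.04 ± 2.21 TPM (SD, n = 5). Each rests on 1 library. Without its highest library, at 6.37 TPM in baboon 3, the BPIFB3 mean was 0.516 TPM. Without baboon 5, at 5.00 TPM, the BPIFA3 mean was 0.0485 TPM, below the submandibular mean of 0.66 TPM.

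The genes with the most similar profiles were sought by Pearson's r of log2(TPM + 1) among 6160 named genes whose highest tissue mean was 10 TPM or more. These values are descriptive, since the libraries share animals and tissue content. For BPIFA2 they were CA6 (0.962), PRR27 (0.956) and PRH2 (0.931), the last an acidic proline-rich salivary protein gene, over 25 libraries, and the same 3 genes led over the 15 gland libraries. For BPIFB1 they were DMBT1 (0.922), a mucosal scavenger protein also called salivary agglutinin, OLFM4 (0.900) and ZG16B (0.879). FCGBP, which encodes a mucus protein, replaced ZG16B when the glands alone were used (0.916). For BPIFB2 they were PIGR (0.792), the carrier of secretory IgA, GOLM1 (0.792) and FCGBP (0.786), and over the glands FAM177B (0.891) and GOLM1 (0.819) were among the leading genes. BPI was most like its neighbour LBP (0.937), then CP (0.932), which encodes ceruloplasmin, and INHBC (0.929). LBP was most like F9 (0.976), coagulation factor IX, INHBC (0.971) and CRP (0.970).

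Among the family members themselves, BPIFB1 and BPIFB2 had an r of 0.649 over 25 libraries and 0.625 over the 15 gland libraries. BPIFA2 had an r of 0.0359 with BPIFB1 and 0.112 with BPIFB2 over 25 libraries, and of -0.284 and -0.141 over the glands.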

How the data were processed

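Per the labels' protocols, RNA from frozen tissue sections was treated with DNase and read from both ends on an Illumina HiSeq. The deposited values were TPM per gene, kallisto abundances by the name of the authors' table. The submitters' processing notes also name FastQC, MultiQC, cutadapt, HISAT2, SAMtools and featureCounts. Versions, kallisto index and genome build are not given in the sources used here. Libraries summed to 999999 to 1000001 TPM, so a few very abundant genes lower all others, and TPM keeps no read depth.

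The 14991 of 21287 genes whose highest tissue mean was 1 TPM or more were fitted on log2(TPM + 1), a pseudocount of 1, with the functions lmFit, contrasts.fit and eBayes (trend) of limma 3.58.1 under R 4.3.3. The model held tissue and animal and all 25 libraries. P-values were Benjamini-Hochberg adjusted over all genes within each comparison. The fit was also run on simulated data with equal spread in every tissue. The check set there was that median estimated log2 fold changes lay near the true ones, and it did not cover the p-values. Libraries with the same number come from the same animal: their deviations from the tissue means correlated at a mean r of 0.161, against -0.0354 for different animals. Symbols and gene order came from the RefSeq table of Panubis1.0, which was not used for coordinates. Sequences were not used here. As the values were TPM, no count test was run. Alternatives were no animal term, only the compared tissues, median-of-ratios and upper-quartile scaling, a pseudocount of 0.1, no filter or one of 5 TPM, each animal left out, 4 gland libraries with much RNA of other tissue left out (parotid of baboons 2 and 5, submandibular of baboon 5, sublingual of baboon 2), and, added after the data were seen, the 5 libraries low in AQP5 and LPO left out. Named genes were the 6 members and, for each, the 3 genes most like it by Pearson's r, of which 1 is not reported here; other listed genes are examples from fixed lists. The members and lists were chosen with earlier results of these data known. Python 3.11.15, pandas 2.3.3, numpy 2.4.6, scipy 1.17.1 and matplotlib 3.10.9 were used for the rest.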

Additional observations from a re-analysis of the deposited data

Results flagged for a closer look

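Single libraries stood apart from the rest of their group by Dixon's test in 2 of the 19 groups of 5 libraries that could be tested. Chance flags about 1 in 20 groups of normally distributed values. The test was run on TPM without a log, where high values stretch the range, so that rate cannot be taken over here. The first was BPIFB1 in the sublingual gland, where baboon 5 had 16725 TPM and the next library 3203 TPM. ZG16B was at 217252 TPM, LYZ at 17351 TPM and LCN2 at 7515 TPM in that library, each the highest of the 25 libraries. The 5 airway secretory markers summed to 2440 TPM there, of which SCGB3A2 alone supplied 2429 TPM. The second was BPIFB2 in the sublingual gland, where baboon 1 had 418 TPM and the next library 32.3 TPM. MUC5B, the gel-forming mucin of mucous glands, was at 86.7 TPM there and at most 0.947 TPM in the other 24 libraries. KRT13, a keratin of the oral lining, was at 50365 TPM in the same library and at 12518 TPM in sublingual baboon 4, in which BPIFB2 was at 0.94 TPM. The part of these markers in the 2 high values was not tested.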

How the results depend on the processing

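The limits of these data are the unknown read depth, 5 animals, and the unequal gland content of the salivary libraries. BPIFA2 in the submandibular gland against pancreas and liver was called in all 14 alternatives. So was LBP in liver against the other 4 tissues, but it entered the test through liver alone. Other counts of called genes moved. For the parotid gland against pancreas, 0 became 1 without the 4 gland libraries and without the 5, and 0 to 1 with 1 animal left out. For the sublingual gland against pancreas, 2 became 0 with only the compared tissues and with upper-quartile scaling, 1 with median-of-ratios scaling and with no filter, and 0 to 2 with 1 animal left out. For the parotid gland against liver, 2 became 1 under both scalings and the 5 TPM filter, 3 without the 4 libraries and without the 5, and 1 to 3 with 1 animal left out. For the submandibular gland against liver, 3 became 4 with only the compared tissues, median-of-ratios scaling, a pseudocount of 0.1 or the 5 libraries left out, and 2 with the 5 TPM filter. For the sublingual gland against liver, 4 became 2 with only the compared tissues, 3 with upper-quartile scaling, the 5 TPM filter or the 5 libraries left out, and 2 to 4 with 1 animal left out. For pancreas against liver, 2 became 1 with upper-quartile scaling and the 5 TPM filter. Between the parotid and sublingual glands, 0 became 3 without the 4 and without the 5 libraries, and 0 to 3 with 1 animal left out. Between the submandibular and sublingual glands, 1 became 0 without the replicate block, with only the compared tissues, under both scalings and with no filter, 2 without the 4 libraries, 3 without the 5, and 0 to 2 with 1 animal left out. The replicate block changed no other call: without it, BPIFA2 in this comparison had an adjusted p of 0.073. Without the 5 libraries, the share of all genes called also rose. Against liver it went from 13.8% to 33.5% for parotid, 16.5% to 33.9% for submandibular and 15.4% to 27% for sublingual. For parotid against pancreas it went from 3.82% to 7.04%. Against the sublingual gland it went from 0.113% to 30.3% for parotid and 0.0667% to 32.1% for submandibular. The 5 TPM filter took BPI, whose highest tissue mean was 1.52 TPM, out of the test, so BPI could not be called under it. The cause of the other moves was not tested.

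Of 678 values of the 5 tested genes under alternatives, 579 kept their direction and side of the threshold, 39 lost a call, 26 gained one and 34 changed sign. No value that changed sign was called, and the largest was 0.70 in size. In the order median-of-ratios, upper-quartile scaling, BPIFA2 in the sublingual gland against pancreas became -0.58 and -0.70, BPIFB1 in pancreas against liver 0.19 and 0.44 and in the parotid against the submandibular gland -0.042 and -0.030, LBP in the parotid against the sublingual gland 0.041 and 0.070 and in the submandibular against the sublingual gland 0.012 and 0.037, and BPI in the submandibular gland against pancreas 0.0019 and 0.0023. Without the 4 libraries, BPI became -0.012 for the parotid gland against pancreas and -0.20 against the sublingual gland, and BPIFA2 in the sublingual gland became -0.070 against pancreas and -0.062 against liver. Without the 5 libraries, BPI became 0.058 for the submandibular gland against pancreas, -0.039 for the parotid against the submandibular gland and -0.24 against the sublingual gland, and LBP 0.021 for the sublingual gland against pancreas and -0.088 for the parotid against the submandibular gland. With 1 animal left out, 13 values changed sign: BPIFA2 ranged from -0.060 to 0.40 for the sublingual gland against pancreas and from -0.27 to 0.33 for pancreas against liver, BPIFB1 from -1.20 to 0.43 for pancreas against liver, BPIFB2 from -0.011 to 0.26 for the parotid gland against liver, BPI from -0.0039 to 0.0031 for the submandibular gland against pancreas and from -0.070 to 0.17 for the parotid against the sublingual gland, and LBP from -0.076 to 0.051 for the parotid against the sublingual gland and from -0.016 to 0.19 against the submandibular gland.

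Scaling moved the median log2 fold change of all genes, for example from 0.63 to 0.11 and 0.04 for the sublingual gland against pancreas and from -0.44 to -0.06 and 0.01 for the submandibular against the sublingual gland. Counts over all genes varied as well. The alternatives called 315 to 1270 genes for the parotid gland against pancreas (572 in the main analysis), 326 to 1306 for the submandibular gland (611) and 393 to 5173 for the sublingual gland (1419). Against liver they called 1335 to 4841 for the parotid gland (2064), 1535 to 4893 for the submandibular gland (2474), 1543 to 3908 for the sublingual gland (2316) and 1722 to 4313 for pancreas (2623). Between glands they called 0 to 20 for parotid and submandibular (0), 0 to 4376 for parotid and sublingual (17) and 0 to 4646 for submandibular and sublingual (10).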
